A study of Mus musculus with 4 samples.

Results

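Fibronectin (Fn1), tenascin C (Tnc), the thrombospondins Thbs1 to Thbs4, periostin (Postn), Sparc, Sparcl1 and versican (Vcan) are secreted proteins of the pericellular matrix of stromal cells. These 10 genes were followed across cultured mouse mesenchymal stem cells (MSC), plastic-adherent stromal cells, from colon and bone marrow. All probe sets that the platform annotation pairs with exactly 1 of the 10 symbols were taken, which gave 24 of the 45101 probe sets of the table, standing for 10 of the 18193 genes named in it. Vcan had 8 of them, Thbs2 and Sparc had 3 each, Fn1, Tnc and Thbs1 had 2 each, and Thbs3, Thbs4, Postn and Sparcl1 had 1 each. One further probe set, annotated to both Pald1 and Thbs1, was left out by that rule.

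The samples were 2 colonic MSC lines, isolated from flushed colon, and 2 bone marrow MSC lines, all from C57BL/6 mice, with 1 Affymetrix array per line. The titles call them biological replicates, and each replicate is treated here as a line. Neither tissue carried a treatment or a genetic change, per the labels. All lines had been selected by adherence to plastic after collagenase digestion. Low-glucose DMEM with 10% FBS was the culture medium, and cells were taken at passages from 5 to 10. The sources name neither the passage of each line nor the number of animals behind it, so the values describe 2 passaged lines per tissue.

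Fibronectin is assembled by cells through integrins into fibrils that carry other matrix proteins. Tenascin C, the thrombospondins, periostin and Sparc are matricellular proteins, which act on cell attachment and growth factor signalling rather than as load-bearing fibres, and are known for their presence in healing and remodelling tissue. Versican is a large chondroitin sulphate proteoglycan that binds hyaluronan. Most of these genes are known products of fibroblasts and other stromal cells.

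Array medians lay between 53.7 and 55.7 and upper quartiles between 611 and 657, so the arrays were on a like scale. Intensities of different probe sets cannot be compared as amounts, and the brightest probe set of an array had between 19203 and 20912. The stromal genes Vim, Col1a1 and Col1a2 were bright on all 4 arrays, with leading probe sets between 9701 and 16159. Of 9 stromal markers, the leading probe set did not overlap between tissues with colonic lines above for 3 and below for 2. Over all tested probe sets these shares were 17.9% and 15.5%. Thy1 was at 4516 and 9032 in colonic lines and near the floor, at 32.8 and 22.0, in bone marrow lines. Pdgfra was at 492 and 743 in colonic lines and 1609 and 2493 in bone marrow lines. Pdgfrb was at 3377 and 3844 in colonic lines and 5042 and 4686 in bone marrow lines. Of 7 macrophage markers 5 passed the intensity filter of 33.3 used below and 2 (Ptprc and Adgre1, at most 32.1 on any array) did not. The list summed to 1635 and 1560 in colonic lines and 2832 and 1082 in bone marrow lines. Within it Cd14 lay between 573 and 963, Csf1r reached 324, and Lyz2 was at 150 and 590 in colonic lines and 1589 and 31.7 in bone marrow lines. Of 4 endothelial markers Kdr (91.1 and 68.9 in colonic lines, 31.9 and 18.5 in bone marrow lines) and Tek passed, while Pecam1 (at most 2.48) and Cdh5 did not. Kdr did not overlap between tissues, with a log2 difference of 1.28 ± 0.30 (SE, limma adjusted p = 0.594). Tek, at 43.6 and 42.2 in colonic lines and 32.0 and 15.9 in bone marrow lines, did not overlap either. Its log2 difference was 0.62 ± 0.30 (SE, limma adjusted p = 0.966). The bone marrow means of Kdr and Tek, 25.2 and 23.95, were below the filter, so both passed through their colonic arrays. The endothelial list summed to 147 and 136 in colonic lines and 89.2 and 50.7 in bone marrow lines. Of 5 epithelial markers 2 passed, and the list summed to 134 and 102 in colonic lines and 105 and 130 in bone marrow lines. Low values do not show that a cell type was absent, and the part of these markers in the members' values was not tested. In these bulk samples fewer cells of a type and less RNA per cell cannot be told apart.

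Values were compared as log2(intensity + 13.7), and a difference is always colonic minus bone marrow, with its standard error (SE) and 95% interval from limma. On this scale the difference understates the ratio of intensities near the floor. A probe set was tested when its mean over the 4 arrays exceeded 33.3, a filter that 18 of the 24 probe sets and 9 of the 10 genes passed. At a limma adjusted p of 0.05 over 27022 probe sets, 0 of the 18 were called, against a background of 0% (0 probe sets). Of all probe sets, 0.2% lay below an adjusted p of 0.1, and none of the 18 did. The lowest adjusted p among the 18 was 0.471, for Tnc, and over the whole table it was 0.0609. An unadjusted p under 0.05 was found for 5 of the 18 (background 5.63%), namely both of Tnc and 3 of Vcan. That count was 2 without colonic replicate 1, 6 without colonic replicate 2 and 3 without either bone marrow array.

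Colonic and bone marrow arrays did not overlap in 12 of the 18 probe sets, 8 with colonic lines above and 4 with colonic lines below. The background was 33.4% for either order, 17.9% for colonic above and 15.5% for colonic below. Probe sets of 1 gene share its transcript, so the 12 are not 12 independent values. On the log2 scale 3 probe sets lay at least 2-fold above (2 of Tnc and 1 of Sparcl1, background 4.7%) and 3 at least 2-fold below (all Vcan, background 2.97%), where 7.66% of all probe sets differed by as much in either direction. The median log2 difference was 0.09 over the 18 and 0.0031 over all 27022.

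**Figure D1:**
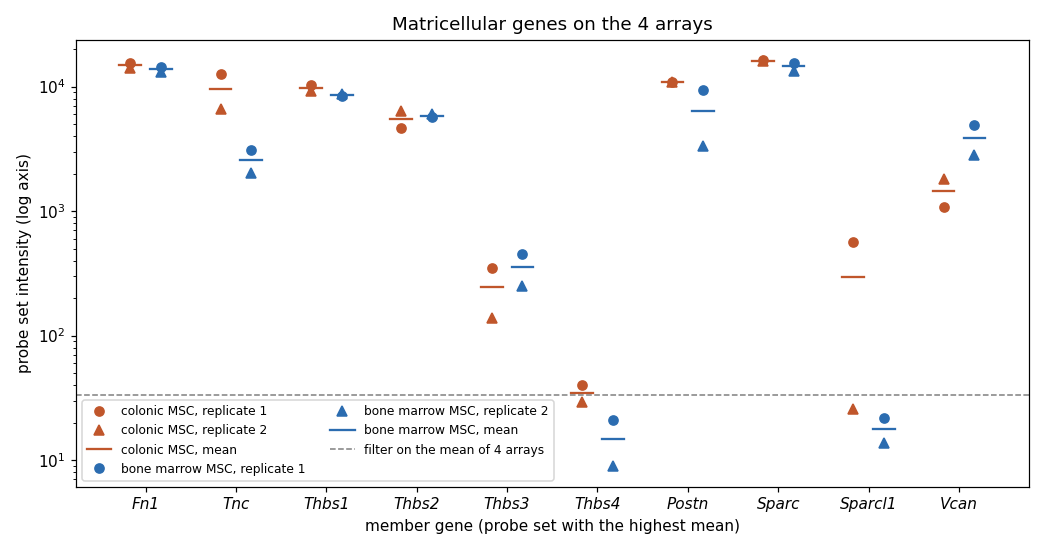
Intensity on a log axis for the leading probe set (highest mean) of each of the 10 genes, with circles for replicate 1, triangles for replicate 2 and bars for the mean of 2 lines; the dashed line is the filter on the mean. Colonic lines lie above bone marrow lines for Tnc and below them for Vcan, the 2 bone marrow lines part for Postn and the 2 colonic lines part for Sparcl1; heights of different genes are not comparable.

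Tnc, the hexameric tenascin that modulates attachment to fibronectin, had the largest colonic excess of the tested members apart from Sparcl1. Its leading probe set, 1416342_at, had 12583 and 6606 in colonic lines, against 3099 and 2014 in bone marrow lines. Both colonic values lay above both bone marrow values, the closest arrays being 2.13-fold apart. The means were 9595 ± 4227 in colonic and 2557 ± 767 in bone marrow lines (SD, n = 2 each), a ratio of 3.75. The log2 difference was 1.86 ± 0.39 (SE), with a 95% interval of 0.85 to 2.88 before any adjustment, and the limma adjusted p of 0.471 did not pass.

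The dimmer Tnc probe set, 1456344_at, had 696 and 202 in colonic lines and 96.5 and 81.9 in bone marrow lines. It kept the same order, with the closest arrays 2.09-fold apart, and the colonic line of replicate 1 was the brightest in both probe sets. Its log2 difference was 1.93 ± 0.63 (SE, adjusted p = 0.812), and it was 1.07 without colonic replicate 1 and 2.79 without colonic replicate 2. For the leading probe set the same omissions gave 1.40 and 2.33.

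Vcan, the hyaluronan-binding proteoglycan, ran the other way in every probe set that passed the filter. Probe set 1427256_at had 1075 and 1799 in colonic lines, against 4912 and 2845 in bone marrow lines. Both colonic lines lay below both bone marrow lines, by 1.58-fold between the closest arrays. Bone marrow lines averaged 2.70 times the colonic mean, with 1437 ± 512 in colonic and 3878 ± 1462 in bone marrow lines (SD, n = 2 each). The log2 difference was -1.42 ± 0.40 (SE), with a 95% interval of -2.47 to -0.36 and a limma adjusted p of 0.713.

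Probe set 1421694_a_at of Vcan had 366 and 701 in colonic lines and 1548 and 997 in bone marrow lines, and 1427257_at had 138 and 336 in colonic lines and 990 and 503 in bone marrow lines. In all 3 the order of the 4 arrays was the same, with colonic replicate 1 lowest and bone marrow replicate 1 highest. The log2 differences were -1.27 ± 0.46 and -1.65 ± 0.59 (SE, adjusted p = 0.864 and 0.858). For 1427257_at the difference was -1.04 without colonic replicate 1 and -2.25 without colonic replicate 2, while for 1427256_at it was -1.02 with bone marrow replicate 1 left out and -1.81 with replicate 2 of that tissue left out.

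The remaining 5 Vcan probe sets were below the filter and were not tested. Their intensities lay between 1.00 and 17.3 on all arrays. One of them, 1459767_x_at, had 13.5 and 10.4 in colonic lines and 2.33 and 1.47 in bone marrow lines, the opposite order to the bright probe sets at an intensity near the floor. The suffix x marks probe sets whose probes can bind other transcripts. Splice forms of Vcan cannot be assigned to probe sets from the files.

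**Figure D2:**
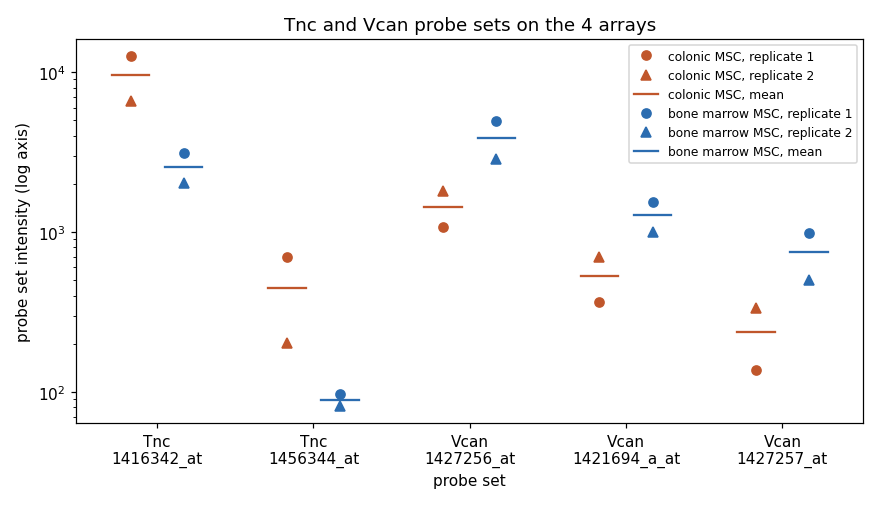
Intensity on a log axis for the 2 Tnc and the 3 Vcan probe sets that passed the filter, with symbols as for the plot of all members. In each of the 5 the 2 colonic and the 2 bone marrow lines do not overlap, with colonic lines higher for Tnc and lower for Vcan.

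The 250 bases before an annotated transcription start are shown for the 2 genes with opposite tissue differences, and for Postn, which parted the bone marrow lines, so that the regions upstream of these starts can be read side by side. The Vcan start shown lies inside the annotated span of that gene, downstream of its 5′ end at 89743027. Sequences are from RefSeq (build GRCm38.p6), 5′ to 3′ on the gene's strand, with the TATA box letters, TATAAA, and the GC box letters, GGGCGG, in capitals wherever they occur on either strand.
Tnc, chr4:64047016-64047265, minus strand: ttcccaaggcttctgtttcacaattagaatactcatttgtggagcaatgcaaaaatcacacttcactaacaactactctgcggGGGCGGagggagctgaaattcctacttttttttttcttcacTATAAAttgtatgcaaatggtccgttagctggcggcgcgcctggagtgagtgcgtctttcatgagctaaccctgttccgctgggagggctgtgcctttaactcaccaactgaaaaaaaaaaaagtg
Vcan, chr13:89742513-89742762, minus strand: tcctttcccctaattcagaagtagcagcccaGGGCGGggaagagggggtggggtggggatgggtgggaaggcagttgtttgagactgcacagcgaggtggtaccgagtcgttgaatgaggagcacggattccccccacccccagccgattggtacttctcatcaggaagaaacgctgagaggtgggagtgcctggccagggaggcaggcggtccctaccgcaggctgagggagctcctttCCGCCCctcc
Postn, chr3:54360857-54361106, plus strand, the more downstream of its annotated starts: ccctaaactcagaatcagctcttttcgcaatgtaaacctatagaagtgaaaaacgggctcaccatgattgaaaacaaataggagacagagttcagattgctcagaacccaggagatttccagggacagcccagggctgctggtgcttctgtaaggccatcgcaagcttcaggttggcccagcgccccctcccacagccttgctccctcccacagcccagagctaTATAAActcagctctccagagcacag
The Tnc stretch held 1 TATAAA and 1 GGGCGG, the Vcan stretch held 2 GGGCGG and no TATAAA, and the Postn stretch held 1 TATAAA close to the start, 26 bases before it, and no GGGCGG. At the other annotated Postn start, chr3:54359017-54359266, the stretch held none of the motifs searched. In the Tnc stretch TATAAA began at position -126 from the start shown and at -205 from the other annotated Tnc start. The stretch before that other, more downstream start is not printed. Near its end it held the letters tatataag, which the search for exact letters does not count. The letters TATAAA occurred in 12.4% and GGGCGG in 32.7% of the 32851 stretches of that length in the table. The AP-1 letters TGANTCA (6.75% of stretches) were in none of the 3, and CCAAT (33.8%) was in that of Vcan alone among the 3. The motifs searched do not overlap each other in these stretches, and a match is a description of the letters only. Tnc lies on chromosome 4 from 63959785 to 64047015 and Vcan on chromosome 13 from 89655309 to 89743027 in the same annotation.

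Fn1, the fibril-forming scaffold protein recognised by integrin alpha5 beta1, was close to the top of the range of the arrays in every line. Its leading probe set, 1426642_at, had 15330 and 14203 in colonic lines and 14228 and 13174 in bone marrow lines. The tissues overlapped, and the log2 difference of 0.11 ± 0.08 (SE) was as large as that between lines of 1 tissue, with a 95% interval of -0.10 to 0.31. The dim probe set 1437218_at had 738 and 379 in colonic lines and 509 and 529 in bone marrow lines. Here the bone marrow lines lay between the colonic ones, and the interval of the difference, -1.09 to 1.15, allows 2-fold either way. Signals near the top of the range may be compressed, which was not tested.

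Of the thrombospondins, Thbs1 and Thbs2 form trimers that bind the receptor CD47 and, through type 1 repeats, CD36, while Thbs3 and Thbs4 form pentamers. Thbs1, which can also activate latent TGF-beta, had 10293 and 9261 in colonic lines and 8374 and 8749 in bone marrow lines by 1460302_at. Its second probe set, 1450377_at, had 3538 and 2551 in colonic lines and 1629 and 2447 in bone marrow lines. Colonic lines lay above bone marrow lines in both, but the closest arrays differed by 1.06-fold and 1.04-fold only. The log2 differences were 0.19 ± 0.10 and 0.59 ± 0.31 (SE, adjusted p = 0.984 and 0.985). For 1450377_at the difference was 0.29 with bone marrow replicate 1 left out, and 0.88 with replicate 2 of that tissue left out.

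Thbs2 had 4633 and 6361 in colonic lines and 5676 and 5967 in bone marrow lines by 1422571_at. The bone marrow lines lay between the colonic lines, and the same held for 1450663_at, with 4055 and 5426 in colonic lines and 4188 and 4698 in bone marrow lines. The third probe set, 1447862_x_at, had 1192 and 1683 in colonic lines and 1487 and 1788 in bone marrow lines, which also overlap. The log2 differences were -0.10, 0.08 and -0.20, with intervals of -0.60 to 0.40, -0.44 to 0.60 and -0.98 to 0.58. In each of the 3, colonic replicate 1 was the dimmest array, by 1.34-fold to 1.41-fold below the other colonic line.

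Thbs3 had 348 and 139 in colonic lines and 456 and 249 in bone marrow lines, so that the tissues overlapped and the replicate 1 line was brighter in both. The log2 difference was -0.58 ± 0.57 (SE), and the colonic lines alone were 2.50-fold apart. Thbs4 stayed below the filter, with 40.4 and 29.5 in colonic lines and 20.9 and 8.92 in bone marrow lines. Both colonic lines lay above both bone marrow lines, and the probe set was not tested. The probe set annotated to both Pald1 and Thbs1 had 9062 and 8963 in colonic lines and 8743 and 9104 in bone marrow lines.

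Postn, an integrin ligand that takes part in collagen assembly, differed between the bone marrow lines more than between tissues. Its probe set had 10779 and 10912 in colonic lines, against 9309 and 3307 in bone marrow lines. The colonic lines were 1.01-fold apart and the bone marrow lines 2.81-fold, with bone marrow replicate 2 alone low. The log2 difference of 0.96 ± 0.50 (SE, adjusted p = 0.981) was 0.22 when bone marrow replicate 2 was left out, and 1.71 when replicate 1 of that tissue was left out.

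Sparc, a collagen-binding glycoprotein of bone and stroma, was bright throughout, with 16334 and 16002 in colonic lines and 15579 and 13438 in bone marrow lines by 1416589_at. The second bright probe set, 1448392_at, had 15239 and 14788 in colonic lines and 14176 and 13036 in bone marrow lines. Colonic lines lay above bone marrow lines in both, by 1.03-fold and 1.04-fold between the closest arrays, and the log2 differences were 0.16 ± 0.09 and 0.14 ± 0.07 (SE). With bone marrow replicate 2 left out they were 0.053 and 0.083, and with replicate 1 of that tissue left out 0.27 and 0.20. The dim probe set 1458204_at had the opposite order, with 83.3 and 73.5 in colonic lines and 84.9 and 124 in bone marrow lines. Its log2 difference was -0.34 ± 0.31 (SE), it was -0.10 and -0.58 under the same omissions, and none of the 3 passed (adjusted p = 0.979 to 0.99).

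Sparcl1, the relative of Sparc also called hevin, was clearly above the floor in a single line. It had 565 and 25.8 in colonic lines and 22.0 and 13.7 in bone marrow lines. Colonic replicate 1 was 21.9-fold above colonic replicate 2, which was 1.18-fold above the brighter bone marrow line, and the probe set passed the filter through that array. The log2 difference was 2.28 ± 1.29 (SE), with a 95% interval of -1.12 to 5.67. Without colonic replicate 1 the probe set no longer passed the filter, and without colonic replicate 2 the difference was 4.21 with a limma adjusted p of 0.0453, from a lone colonic array assumed to vary like the bone marrow ones.

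Among 5 smooth muscle markers, the leading probe set of each was brightest in colonic replicate 1, the line that was high for Sparcl1. Each was also dimmest in bone marrow replicate 2, the line that was low for Postn. The gaps differed in size, with Des and Myh11 far apart from the rest in colonic replicate 1 and Cnn1 in bone marrow replicate 2. The desmin gene Des was at 2379 and 47.9 in colonic lines and 52.4 and 25.1 in bone marrow lines, and the smooth muscle myosin gene Myh11 at 1123 and 43.4 in colonic lines and 41.3 and 16.7 in bone marrow lines, each bright in colonic replicate 1 alone, as Sparcl1 was. The calponin gene Cnn1 was at 11529 and 8477 in colonic lines and 8623 and 33.0 in bone marrow lines, lowest in bone marrow replicate 2, as Postn was. Tagln had 12334 and 11571 in colonic lines and 10867 and 6641 in bone marrow lines, also lowest there. The leading Acta2 probe set had 17010 and 16801 in colonic lines and 16513 and 15980 in bone marrow lines, near the top of the range on all 4 arrays. All 5 genes of the smooth muscle list passed the filter. The summed intensity of the list was 44376 and 36940 in colonic lines and 36097 and 22695 in bone marrow lines. Its part in the values of Postn and Sparcl1 was not tested. The order is not particular to this list. Outside it, the leading probe sets of Tnc and of Itga8, Has2 and Tgfb3, named below, had the same brightest and dimmest arrays. That of Vcan did not. The share of all probe sets with these extremes was not counted.

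**Figure D3:**
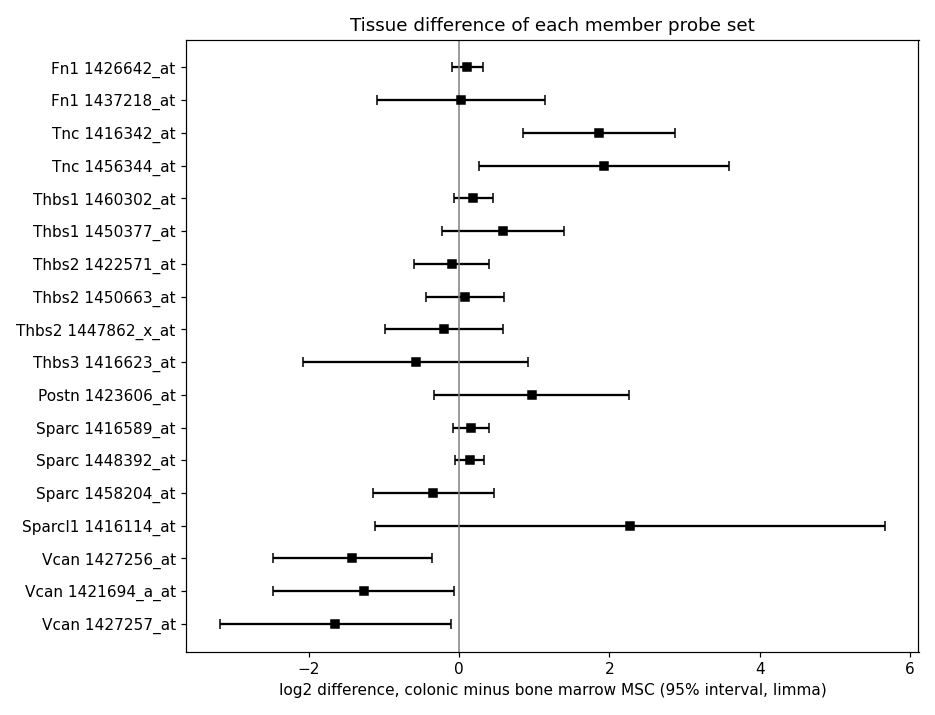
Log2 difference, colonic minus bone marrow, for the 18 member probe sets that passed the filter, with squares for the limma estimate and bars for its 95% interval before adjustment. The intervals of the 2 Tnc probe sets lie above 0 and those of the 3 Vcan probe sets below 0, while the other 13 include 0.

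Line-to-line spread, moderated by limma toward its trend over all tested probe sets, set the precision of these values. The 2 colonic lines were at least 2-fold apart on the log2 scale in 4 of the 18 probe sets (1 each of Tnc, Thbs3, Sparcl1 and Vcan, background 13.5%), and the 2 bone marrow lines in 1 (Postn, background 9.94%). The tissue difference was larger than the difference between lines in both tissues for 8 of the 18 probe sets, against 21.1% of all probe sets. These 8 were both of Tnc, both of Thbs1, the 3 of Vcan and 1 of Sparc.

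**Figure D4:**
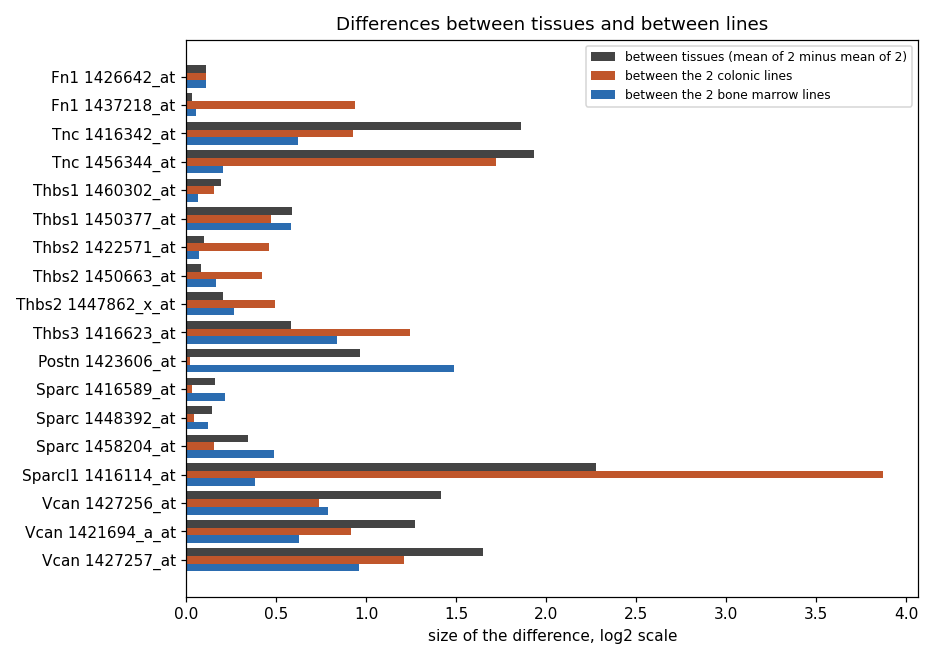
Size of the log2 difference between tissues (grey), between the 2 colonic lines (orange) and between the 2 bone marrow lines (blue) for the 18 probe sets. The grey bar is the longest for Tnc and Vcan, the orange bar for Sparcl1 and Thbs3, and the blue bar for Postn.

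Relatives of the members from a list of 14 genes were measured in 15 probe sets of 9 genes above the filter, and 0 passed the limma threshold in either direction, with 6 under an unadjusted p of 0.05 (background 5.63%). Of these 6, 4 were probe sets of 1 gene, Tgfbi, and are not independent. The median log2 difference of the 9 leading probe sets was -0.01. Tgfbi, the paralogue of periostin, had 327 and 88.8 in colonic lines and 5197 and 1532 in bone marrow lines by the probe set with the lowest p. The tissues did not overlap, and the log2 difference was -3.93 ± 0.85 (SE, adjusted p = 0.506). Smoc2, which shares the extracellular calcium-binding module of Sparc, had 3682 and 1777 in colonic lines and 8362 and 5672 in bone marrow lines, a log2 difference of -1.42 ± 0.41 (SE, adjusted p = 0.726). Tenascin X (Tnxb) had 73.6 and 57.0 in colonic lines and 17.9 and 23.6 in bone marrow lines. Its log2 difference was 1.20 ± 0.26 (SE, adjusted p = 0.491). The bone marrow mean of Tnxb, 20.7, was below the filter, so it was tested only through its colonic arrays. Smoc1 differed by 0.25 with overlap.

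Receptors of these proteins were measured in 40 probe sets of 14 of 15 listed genes, of which 0 passed in either direction and 13 had an unadjusted p under 0.05 (background 5.63%). The 13 came from 6 genes, with 4 of Cd47, 3 of Itgb1, 2 each of Cd44 and Itga9, and 1 each of Itga8 and Notch1. Over the leading probe sets of all 14 genes the median log2 difference was 0.23. Cd47, the thrombospondin receptor, had 1057 and 1099 in colonic lines and 2661 and 2931 in bone marrow lines, a log2 difference of -1.36 ± 0.23 (SE, adjusted p = 0.306). The lines of each tissue were close together and the tissues did not overlap. Itga9, the integrin subunit that binds tenascin C, had 347 and 798 in colonic lines and 60.1 and 39.6 in bone marrow lines, with a log2 difference of 3.11 ± 0.50 (SE, adjusted p = 0.279). It was thus apart in the same order as Tnc, though neither passed. Itga8, another subunit that can bind tenascin C and fibronectin, had 2269 and 253 in colonic lines and 169 and 16.6 in bone marrow lines by its leading probe set, with a log2 difference of 3.39 ± 1.35 (SE, adjusted p = 0.902). Its dimmer probe set, which had the lower p, had 270 and 27.4 in colonic lines and 2.75 and 1.07 in bone marrow lines. In both, colonic replicate 1 was by far the brightest, and in the leading one the bone marrow lines were 10.2-fold apart. Without colonic replicate 2 the dimmer probe set had a difference of 4.19, again from a lone colonic array. The spread between lines then came from the bone marrow lines alone, near the floor, where their 2.57-fold gap was 0.16 on the log2 scale. In the fit limma moderated that spread toward its trend over all tested probe sets. This probe set passed the filter through colonic replicate 1 alone. Notch1, on the same list, had 120 and 155 in colonic lines and 313 and 229 in bone marrow lines, a log2 difference of -0.91 ± 0.34 (SE, adjusted p = 0.878).

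Of 11 genes for hyaluronan synthesis, versican binding and versican cleavage, 5 were measured in 9 probe sets, with 0 past the threshold in either direction and a median of 0.36. An unadjusted p under 0.05 was found for 2 of the 9 (background 5.63%), both of Has2. Has2, a hyaluronan synthase, had 3487 and 1022 in colonic lines and 370 and 198 in bone marrow lines. The tissues did not overlap, in the opposite order to Vcan, with a log2 difference of 2.74 ± 0.70 (SE, adjusted p = 0.669). The link protein gene Hapln1 was below the filter in its 4 probe sets, with values between 6.36 and 33.5. The 4 versican-cleaving proteases above the filter overlapped between tissues, with log2 differences, by the probe set with the lowest p, of 0.36 for Adamts1, 0.57 for Adamts4, -0.17 for Adamts5 and -0.16 for Adamts9. Adamts15 was below the filter, with 24.7 and 16.1 in colonic lines and 16.0 and 13.3 in bone marrow lines.

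Of 8 genes of the TGF-beta pathway, which induces several members in fibroblasts, 6 were measured in 13 probe sets, with 0 past the threshold and 0 under an unadjusted p of 0.05, and a median of -0.07. Tgfb3 had 6023 and 4462 in colonic lines and 3547 and 1619 in bone marrow lines, a log2 difference of 1.11 ± 0.42 (SE, adjusted p = 0.885). Colonic lines were above, and the spread between bone marrow lines was wide. Tgfbr2 differed by 0.50 by a dimmer probe set, the one with its lowest p, and by -0.04 with overlap by its leading one. Smad3 differed by -0.36 and Ltbp1 by -0.09, and none of these was past the threshold.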

How the data were processed

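The deposited table holds probe set intensities on a linear scale for 4 Affymetrix arrays, as judged from the values; amplification of total RNA and biotin labelling are per the labels' protocols, while for summarisation, background correction and scaling the sources give no method. The members and lists were chosen with earlier results of these data known. Of 45101 probe sets, 64 were array controls and left out, 34945 had 1 symbol, 932 several and 9160 none; names are from the platform annotation, updated to RefSeq symbols. List members without a probe set of 1 symbol are not analysed here.

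Values were transformed as log2(intensity + 13.7), 0.25 of the table's median, with the deposited scaling kept, and filtered at the 40th percentile of probe set means. Each of 27022 probe sets across the genome was fitted with limma 3.58.1 in R 4.3.3 (lmFit, eBayes with an intensity trend, tissue as the only term, residual degrees of freedom 2, prior 2.69). P-values are two-sided with Benjamini-Hochberg adjustment over all probe sets, at 0.05. An exact permutation test of 2 against 2 cannot go below 0.333. The fit was also run on simulated data drawn from its own variance model, which cannot test whether that model holds for these lines. The titles call the replicates biological, and each is treated here as a separate line, without a stated animal. The p-values rest on the spread between these lines, which limma moderates toward its trend over all tested probe sets. A gene's probe sets were reported separately, the one with the highest mean leading. Named genes were all member probe sets and, per list, up to 2 genes with the lowest p in each direction; Hapln1, Adamts1, Adamts15, Itgb1, Cd44 and single markers were named after their values were seen. Alternatives were other scalings, pseudocounts, filters, units, variance models, a replicate block and omission of each array.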

Additional observations from a re-analysis of the deposited data

How the results depend on the processing

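Precision is limited by the 2 arrays per tissue. The count of 0 called probe sets over the whole table became 12 with a filter at the 60th percentile (fewer probe sets tested) and 54 at an adjusted p of 0.1, and lay between 0 and 100 when 1 array was left out. The counts for the members and for the companion lists, 0 each, lay between 0 and 1 with an array left out, the 1 being Sparcl1 and Itga8 without colonic replicate 2, and were 0 under every other alternative run. The tested probe sets of Tnc, Vcan, Postn, Thbs1 and Sparcl1 kept their direction under each alternative in which they could be tested. The sign of small differences turned: Fn1 1437218_at was -0.015 with quantile normalization and lay between -0.44 and 0.50 with an array left out, Sparc was -0.013 as the mean of its probe sets, and with an array left out Thbs2 ranged from -0.33 to 0.13 (1422571_at), -0.13 to 0.29 (1450663_at) and -0.45 to 0.045 (1447862_x_at), and Thbs3 from -1.20 to 0.042; causes were not tested. The replicate numbers are not stated to pair lines; deviations of same-numbered lines correlated at 0.139 over probe sets. With the replicate block 0 member probe sets were called and 3 had an unadjusted p under 0.05, the lowest adjusted p being 0.217.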
